A study of Homo sapiens with 12 samples.

Results

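The endoplasmic reticulum (ER) is where secreted and membrane proteins are folded. Of the 32 genes described here, all but KIAA1324 encode its chaperones, disulphide-forming enzymes, degradation machinery, protein entry and retrieval factors, and stress sensors. All 32 are called ER genes below. They were chosen by symbol, and all 32 were listed among the 25540 genes common to the expression tables of the 2 lines. Gene expression was measured by sequencing mRNA of LS411N, a human colon cancer cell line, and of LS411N-BR, its derivative resistant to BRAF inhibition. Both lines carried a tetracycline-inducible short hairpin RNA against MUC1, so every group, controls included, held the hairpin construct and was puromycin resistant. Cells received either doxycycline at 500 ng/ml, which induces the hairpin, or 0.1% DMSO as vehicle, and with both lines this made 4 groups of 3 libraries. LS411N-BR was additionally cultured in 4 uM of a BRAF inhibitor, so line, inhibitor and expression table cannot be told apart. Nor can doxycycline itself be told apart from the hairpin that it induces. The sources used here name neither the inhibitor nor the hairpin sequence or treatment time, and do not say whether triplicates were separate cultures. The p-values therefore measure the spread between these libraries, which may be technical.

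Unfolded protein in the ER lumen is sensed by 3 transmembrane proteins, namely IRE1 (ERN1, and ERN2 in gut epithelium), PERK (EIF2AK3) and ATF6. IRE1 splices XBP1 mRNA into the form that encodes an active transcription factor, cleaved ATF6 enters the nucleus, and PERK slows translation and raises ATF4. XBP1 and ATF6 act on chaperone, folding enzyme and degradation genes, many of which carry an ER stress response element (ERSE) near the start of transcription. Secretory epithelial cells, such as those of the gut, depend on this machinery because they fold large amounts of cargo.

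The promoter words are shown first, as a description of the 32 genes. Carrying such words is a known trait of ER stress genes, so a share above that of all promoters is no independent result. Lack of a word does not show that a gene is no target. RefSeq promoters, running from 250 bases before to 50 bases after the annotated start on GRCh38.p14, were matched for 29 of the 32 genes (PDIA3, ERN2 and KDELR2 were not matched). They were searched on both strands for ERSE (CCAAT, any 9 bases, CCACG), ERSE-II (ATTGG, any 1 base, CCACG) and the unfolded protein response element UPRE (TGACGTGG). Of the 29, 12 held at least 1 of these words, against 301 of 35116 RefSeq promoters (0.857%) and 295 of the 27305 genes they belong to (1.08%). ERSE was present in 8 of the 29, ERSE-II in 3 and UPRE in 2, against 0.0769%, 0.0541% and 0.729% of all promoters. In the lines that follow the match is in capitals with 5 flanking bases on either side, each read in the direction of the word.
HSPA5: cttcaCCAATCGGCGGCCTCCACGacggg
XBP1: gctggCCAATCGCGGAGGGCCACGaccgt
HSP90B1: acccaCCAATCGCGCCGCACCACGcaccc
CANX: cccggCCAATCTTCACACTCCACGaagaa
PDIA6: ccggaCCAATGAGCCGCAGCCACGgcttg
CRELD2: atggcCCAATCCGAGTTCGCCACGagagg
HERPUD1: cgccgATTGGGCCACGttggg
SDF2L1: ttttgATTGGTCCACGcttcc
HYOU1: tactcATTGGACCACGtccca
KDELR3: ggcggTGACGTGGccagg

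The first 6 of these sequences are ERSE, the next 3 are ERSE-II, and the KDELR3 sequence is UPRE. The ERSE of HSPA5 (chr9:125241386-125241414, minus strand) ended 48 bases before the start, and that of XBP1 (chr22:28800598-28800626, minus strand) ended 34 bases before it. The ERSE-II of HERPUD1 (chr16:56932020-56932040, plus strand) ended 107 bases before the start. HSP90B1 held a second ERSE farther upstream, and HYOU1 held a second ERSE-II that overlapped its UPRE. The remaining ERSE matches were in CALR and ERO1B. A match of these letters is a description and does not show that a factor binds there.

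**Figure D1:**
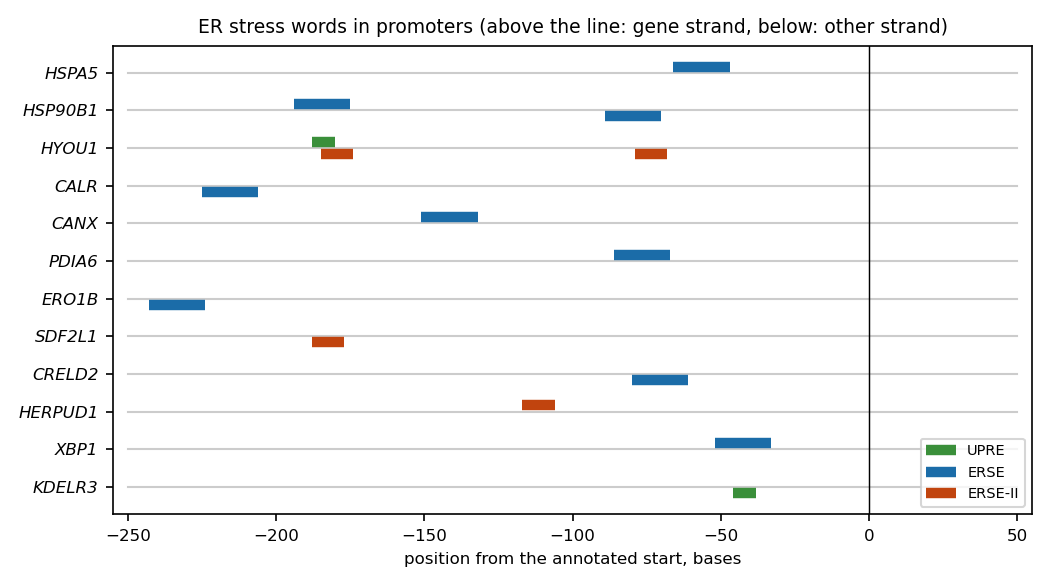
Positions of ERSE, ERSE-II and UPRE matches in the 12 promoters that held one, in bases from the annotated start (x axis); bars above a gene's line are on the gene strand and bars below on the other strand. All matches lay before the start, and those of HSPA5, XBP1 and KDELR3 ended within 48 bases of it.

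Values are in TPM (transcript abundance normalized by the authors for gene length and library total), deposited in 1 table per line and rescaled here so that a typical gene has the same level in all libraries. The read depth behind them is unknown. Between 46.9 and 57.6% of the deposited TPM of a library belonged to short RNA genes, and the library of LS411N without doxycycline numbered replicate 3 had the lowest share and stood apart from its replicates. Its log2 values scattered around theirs with an SD of 0.221 to 0.226 per pair, against 0.0927 to 0.122 for the other 10 replicate pairs. MUC1, the hairpin's target, was at 5.46, 7.08 and 4.13 TPM in LS411N and at 0.978, 0.82 and 1.03 TPM with doxycycline, and at 3.89, 3.85 and 4.45 and then 0.595, 0.358 and 0.394 TPM in LS411N-BR. It fell in both lines with no overlap, with log2 fold changes of -1.73 ± 0.14 (SE, adjusted p = 4.86e-05) and -1.81 ± 0.07 (adjusted p = 5.48e-08). Testing required 1 TPM in 3 libraries, which MUC1 reached in LS411N-BR through its untreated libraries alone. Its call there is therefore no independent support. Of 8 colon epithelium markers, CDX1 stayed under 1 TPM in every library, and the list summed to between 2312 and 3292 TPM. Of 6 fibroblast markers, 5 stayed under 1 TPM in every library (COL1A1, COL1A2, COL3A1, DCN and PDGFRB), and LUM rose in LS411N-BR from 1.34 to 2.41 TPM. Of 5 immune markers, PTPRC, CD3E and CD79A stayed under 1 TPM, whereas LYZ and CD68 did not and brought the sum to 2813 TPM at most in LS411N and 195.9 TPM in LS411N-BR. Both were called in each line, LYZ lower and CD68 higher, and the part of such cells in the results was not tested.

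Of the 31 genes tested (all but ERO1B, which did not reach the filter of 1 TPM in 3 libraries), 3 rose and 9 fell in LS411N, and 3 rose and 22 fell in LS411N-BR. Among all genes tested, 19.2% rose and 15.7% fell in LS411N, and 33.4% rose and 31.3% fell in LS411N-BR. The treated libraries lay all above the untreated ones for 5 genes and all below for 13 in LS411N, where 26.3% and 23.0% of all genes did so, and for 3 and 22 in LS411N-BR, where 35.7% and 33.6% did. The median log2 fold change of the 31 genes was -0.09 in LS411N, where that of all genes was 0.015, and -0.215 in LS411N-BR, where that of all genes was 0.005. Summed over the 32 genes, the level went from 3879 ± 52.5 to 3560 ± 65.2 TPM in LS411N and from 3727 ± 23.1 to 3107 ± 17.5 TPM in LS411N-BR (mean ± SD, n = 3). In RNA of whole cultures, fewer cells of a kind and less RNA per cell cannot be told apart.

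These counts depend on the rescaling. On the TPM as deposited, the median of all genes lay at 0.079 in LS411N and 0.183 in LS411N-BR. In LS411N, 1 of the listed genes was then called lower and none higher (limma, with 2 lower and 2 higher at an unadjusted p under 0.05). It was KIAA1324, which is not a chaperone, so no gene of the ER machinery itself was called there. In LS411N-BR, deposited TPM gave 10 lower and 6 higher, and the falls of HSPA5, CALR, CANX, P4HB, PDIA3, PDIA6, DNAJC3, CRELD2, HERPUD1, EDEM1, SPCS2 and KDELR2 were not called. Among all genes on that scale, 1121 of 11250 were called higher and 404 lower in LS411N, and 6351 of 11322 higher and 1252 lower in LS411N-BR. Of the calls among all genes, 73.5% were then higher in LS411N, against 54.9% after rescaling, and 83.5% in LS411N-BR, against 51.7%. Relative to the median of all genes, the median of the ER genes was -0.098 on deposited and -0.105 on rescaled TPM in LS411N, and -0.198 and -0.22 in LS411N-BR.

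**Figure D2:**
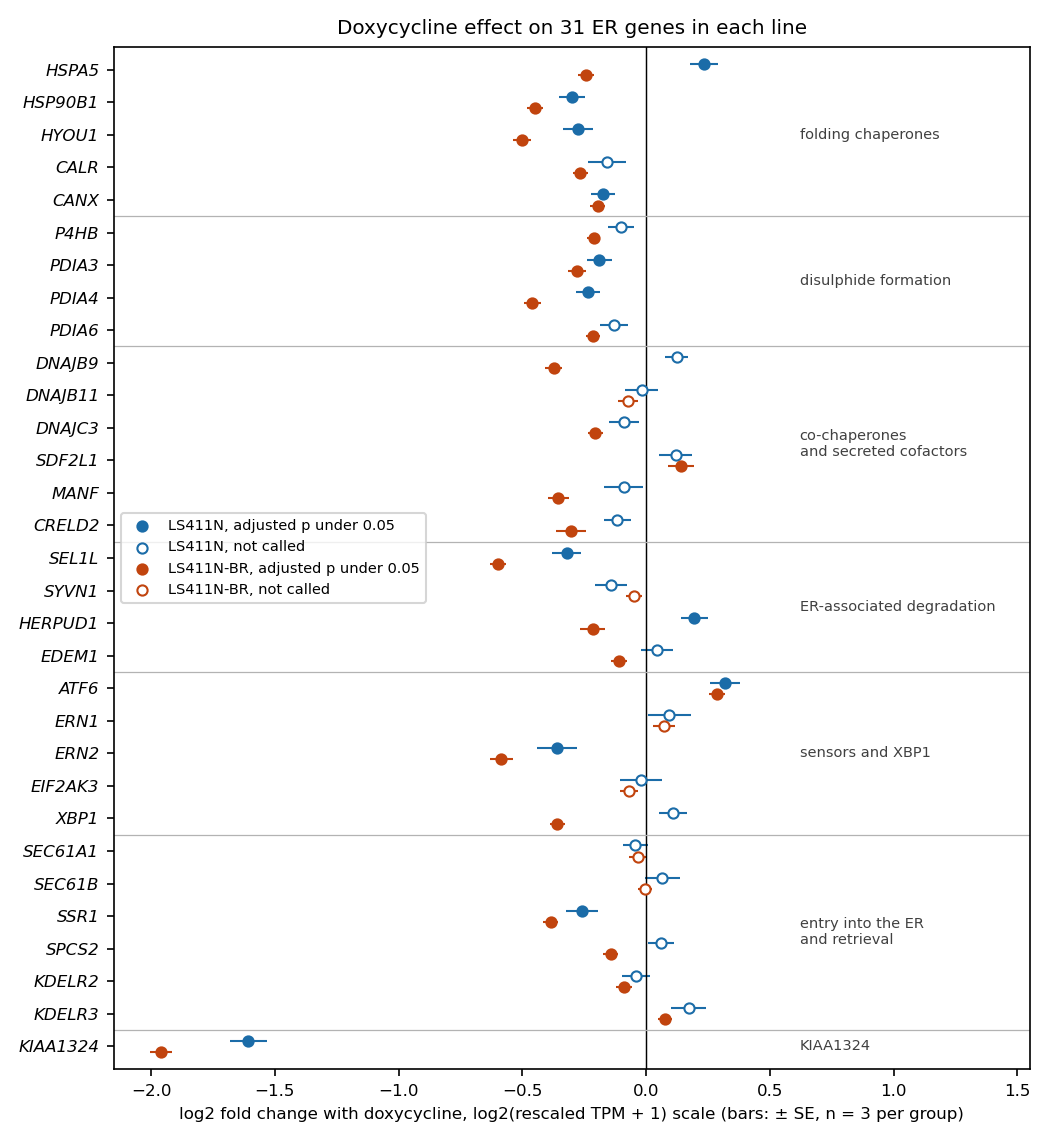
Log2 fold change with doxycycline (x axis, log2(rescaled TPM + 1) scale) of 31 ER genes in order of role, in LS411N (blue) and LS411N-BR (orange); bars are ± SE from 3 libraries per group, and filled points are called at an adjusted p under 0.05. In LS411N-BR 22 points are called lower and 3 higher, in LS411N 9 and 3, and KIAA1324 lies far below the rest in both.

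Among the folding chaperones, HSPA5 (BiP, the HSP70 of the ER lumen and a widely used marker of ER stress; chr9:125234853-125241343, minus strand) went in opposite directions in the lines. In LS411N it was at 142, 141 and 156 TPM without and at 179, 164 and 175 TPM with doxycycline, and in LS411N-BR at 166, 158 and 162 and then 138, 139 and 134 TPM. The groups did not overlap in either line, the treated libraries being above the untreated ones in LS411N and below them in LS411N-BR. HSPA5 rose by 17.7% in LS411N (log2 fold change 0.23 ± 0.06, adjusted p = 0.0144) and fell by 15.6% in LS411N-BR (-0.24 ± 0.03, adjusted p = 0.000104). The rise in LS411N was not called when untreated replicate 1 or 2, or treated replicate 1 or 3, was left out (adjusted p between 0.00114 and 0.0602 over the 6 refits that each left out 1 library). On deposited TPM neither change was called, and the change in LS411N-BR was -0.04 (adjusted p = 0.55).

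HSP90B1 (GRP94, the HSP90 of the ER and one of the most abundant of these transcripts) did not follow HSPA5. It was at 698, 687 and 686 TPM and, with doxycycline, 588, 535 and 560.1 TPM in LS411N, and at 708, 695 and 700.3 and then 512, 515 and 512 TPM in LS411N-BR. Every treated library lay below every untreated one. HSP90B1 fell by 18.7% in LS411N (-0.30 ± 0.05, adjusted p = 0.00305) and fell by 26.8% in LS411N-BR (-0.45 ± 0.03, adjusted p = 1.92e-06). HYOU1 (GRP170, a large HSP70 relative that exchanges nucleotide on HSPA5) went from 106, 110.2 and 103 to 95.1, 84.0 and 84.3 TPM in LS411N and from 75.1, 74.1 and 72.7 to 53.3, 53.3 and 49.3 TPM in LS411N-BR. It fell by 17.5% (adjusted p = 0.00801) and fell by 29.8% (adjusted p = 1.95e-06), with no overlap.

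The lectin chaperones CALR and CANX, which hold glycoproteins during folding, were lower in LS411N-BR. CALR was at 725, 688 and 605 TPM without and 637, 593 and 576 TPM with doxycycline in LS411N, and at 552, 556 and 555 and then 466, 463 and 454 TPM in LS411N-BR. In LS411N the groups overlapped and CALR was not called (adjusted p = 0.143), while in LS411N-BR it fell by 16.8% (adjusted p = 5.73e-05). The lowest of the untreated LS411N values is that of the library that stood apart, and without it CALR was called lower. CANX fell in LS411N from 482 ± 12.1 to 427 ± 5.06 TPM (adjusted p = 0.0214) and in LS411N-BR from 435 ± 1.30 to 379.6 ± 3.19 TPM (adjusted p = 0.000306). The CANX call in LS411N was lost without untreated replicate 1 or without any 1 of the 3 treated libraries. On deposited TPM the CANX change in LS411N-BR was 0.005 and not called.

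Disulphide bonds in the ER are made and rearranged by protein disulphide isomerases. All 4 of those tested (P4HB, PDIA3, PDIA4 and PDIA6) fell in LS411N-BR, where 31.3% of all genes did. PDIA3 and PDIA4 also fell in LS411N, where 15.7% of all genes did. PDIA4 had the largest change of the 4, from 111, 112 and 120 to 98.4, 95.0 and 97.2 TPM in LS411N and from 133, 134 and 129 to 93.6, 99.97 and 94.0 TPM in LS411N-BR. The treated libraries were all lower, and the groups did not overlap in either line. PDIA4 fell by 15.2% (-0.24 ± 0.05, adjusted p = 0.00622) and fell by 27.5% (-0.46 ± 0.03, adjusted p = 2.77e-06). PDIA3 (ERp57, the partner of the lectin chaperones) fell by 12.4% in LS411N and fell by 17.6% in LS411N-BR, the first call being lost without treated replicate 2 or 3. P4HB, the classical isomerase, fell by 13.7% and PDIA6 fell by 13.9% in LS411N-BR, where on deposited TPM their log2 changes were -0.011 and -0.015 (adjusted p = 0.881 and 0.839). ERO1B, an oxidase that recharges the isomerases, was listed near 0, between 0 and 0.0562 TPM over the 12 libraries, and was not tested.

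The co-chaperones of HSPA5 and the secreted cofactors showed no call in LS411N, where all 6 were tested, and 4 lower and 1 higher in LS411N-BR. Of all genes, 34.9% were called in LS411N, and 31.3% were lower and 33.4% higher in LS411N-BR. In LS411N 1 of the 6 had an unadjusted p under 0.05, by limma, and it was DNAJB9. DNAJB9 (ERdj4, a J protein that also holds IRE1 inactive; chr7:108569874-108574850, plus strand) was at 11.3, 11.7 and 11.3 TPM and, with doxycycline, 12.7, 12.2 and 12.7 TPM in LS411N, and at 18.1, 17.3 and 18.4 and then 13.3, 13.9 and 13.6 TPM in LS411N-BR. The treated libraries were above the untreated ones in LS411N and below them in LS411N-BR. DNAJB9 fell by 24.1% in LS411N-BR (-0.37 ± 0.03, adjusted p = 1.09e-05) and its change in LS411N was 0.12 ± 0.05 (adjusted p = 0.0788). THAP5, a gene on the opposite strand that overlaps DNAJB9, fell in LS411N-BR from 25.5 to 21.2 TPM and was at 23.3 and 23.1 TPM in LS411N. PNPLA8, which overlaps it too, rose in both lines, by 31.9% and 23.8%. The sources used here do not say whether counting used strand, so reads of such pairs may be mixed.

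MANF, a secreted cofactor of HSPA5, fell in LS411N-BR from 98.5 ± 5.73 to 76.8 ± 2.53 TPM (adjusted p = 7.6e-05). CRELD2, another secreted ER stress protein, fell there from 6.49 ± 0.266 to 5.08 ± 0.505 TPM (adjusted p = 0.00153), and DNAJC3 (p58IPK) from 52.9 ± 0.842 to 45.7 ± 0.916 TPM (adjusted p = 0.000187). DNAJB11 (ERdj3) was called in neither line. SDF2L1, which works with the J proteins, rose in LS411N-BR from 22.3, 20.3 and 23.3 to 25.4, 24.1 and 23.4 TPM (0.14 ± 0.05, adjusted p = 0.0332). The groups did not overlap, but the call was lost without untreated replicate 2 or without treated replicate 1 or 2.

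Among the genes of ER-associated degradation, which returns misfolded proteins to the cytosol for destruction, SEL1L and HERPUD1 moved differently. SEL1L is the scaffold of the HRD1 ubiquitin ligase (chr14:81471547-81533853, minus strand). It went from 16.4, 17.1 and 18.6 to 13.6, 13.2 and 14.3 TPM in LS411N and from 20.4, 20.4 and 20.5 to 12.7, 13.6 and 13.2 TPM in LS411N-BR. All treated libraries were below all untreated ones, and the groups of both lines ended at a similar treated level. SEL1L fell by 21.2% (-0.32 ± 0.06, adjusted p = 0.0037) and fell by 35.6% (-0.60 ± 0.03, adjusted p = 3.55e-07). SYVN1, which encodes the HRD1 ligase itself, was called in neither line. FAU, which overlaps SYVN1 on the same strand, was at 936.5 and 917.5 TPM in LS411N and at 618.3 and 598.5 TPM in LS411N-BR, with no call. Whether FAU reads entered the SYVN1 values was not tested.

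HERPUD1, a membrane adaptor of the same ligase complex (chr16:56932142-56944864, plus strand), was at 58.9, 59.5 and 63.2 TPM and, with doxycycline, 66.4, 72.9 and 69.1 TPM in LS411N. In LS411N-BR it was at 35.9, 35.4 and 33.7 and then 27.9, 32.5 and 29.9 TPM. As for HSPA5, the treated libraries were above the untreated ones in LS411N and below them in LS411N-BR, with no overlap. HERPUD1 rose by 14.8% in LS411N (0.20 ± 0.05, adjusted p = 0.0212) and fell by 14.1% in LS411N-BR (-0.21 ± 0.05, adjusted p = 0.00435). The rise was not called when untreated replicate 1 or 2, or treated replicate 2 or 3, was left out, and on deposited TPM neither change was called. EDEM1, a lectin that sorts glycoproteins for degradation, fell in LS411N-BR by 7.52% (adjusted p = 0.0138), a call that was lost without treated replicate 1 and whose sign turned on deposited TPM.

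Of the sensors, ATF6 rose in both lines while ERN2 fell in both. ATF6, the membrane-bound precursor of a transcription factor, went from 7.90, 8.58 and 9.16 to 11.1, 10.7 and 10.9 TPM in LS411N and from 12.1, 11.9 and 12.3 to 15.1, 14.5 and 15.4 TPM in LS411N-BR. No treated library overlapped an untreated one. The rises were 27.5% (0.32 ± 0.06, adjusted p = 0.00381) and 23.7% (0.29 ± 0.03, adjusted p = 4.62e-05). ERN2 (IRE1 beta, the IRE1 paralog of mucus-secreting epithelium) went from 10.1, 10.99 and 10.3 to 7.96, 8.93 and 7.004 TPM in LS411N and from 8.39, 8.47 and 8.62 to 5.22, 5.03 and 5.76 TPM in LS411N-BR. With no overlap, it fell by 23.9% (-0.36 ± 0.08, adjusted p = 0.00859) and fell by 37.2% (-0.58 ± 0.05, adjusted p = 3.71e-06). PLK1, a mitotic kinase gene that overlaps ERN2 on the opposite strand, was at 43.5 and 38.7 TPM in LS411N, with no call, and fell from 68.6 to 59.2 TPM in LS411N-BR. ERN1 (IRE1 alpha) and EIF2AK3 (PERK) were called in neither line, with log2 fold changes between -0.07 and 0.09.

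XBP1, the transcription factor gene whose mRNA IRE1 splices (chr22:28794560-28800569, minus strand), was at 189.7, 193 and 171 TPM without and 195, 200.3 and 202 TPM with doxycycline in LS411N. In LS411N-BR it was at 141, 135 and 137 and then 107, 109 and 106 TPM. The LS411N groups lay side by side without overlap, whereas the treated LS411N-BR libraries were clearly lower. XBP1 fell by 22.1% in LS411N-BR (-0.36 ± 0.03, adjusted p = 5.83e-06) and its change in LS411N was 0.11 ± 0.06 (adjusted p = 0.169). The values are per gene and do not separate spliced from unspliced XBP1 mRNA.

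Of the genes for protein entry into the ER and retrieval to it, the channel subunits SEC61A1 and SEC61B were called in neither line. SSR1 is a subunit of the translocon-associated TRAP complex, and in LS411N it fell by 16.9% (adjusted p = 0.0128) and in LS411N-BR it fell by 23.9% (adjusted p = 3.75e-06), the first call being lost without treated replicate 1. SPCS2, a signal peptidase subunit, was at 23.0, 22.2 and 23.6 and then 24.4, 22.7 and 24.7 TPM in LS411N, where groups overlapped, and fell from 17.4, 17.1 and 17.7 to 15.7, 15.9 and 15.4 TPM in LS411N-BR (adjusted p = 0.00225). KDELR2 and KDELR3 encode receptors that return escaped ER proteins from the Golgi. In LS411N-BR KDELR2 fell by 6.03% (adjusted p = 0.0389) and KDELR3 rose by 5.52% (adjusted p = 0.0438). Both calls were lost in 5 of 6 refits without 1 library, all but those without untreated replicate 2 (KDELR2) and untreated replicate 3 (KDELR3).

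KIAA1324 had by far the largest change of the 31 genes (chr1:109114115-109206781, plus strand; ELAPOR1 in RefSeq). It encodes a transmembrane protein of the endosome and lysosome system and is not a chaperone. It was at 14.7, 16.8 and 18.1 TPM and, with doxycycline, 4.87, 4.67 and 4.67 TPM in LS411N, and at 12.6, 14.1 and 13.0 and then 2.60, 2.63 and 2.74 TPM in LS411N-BR. Each treated library was far below every untreated one. KIAA1324 fell by 71.3% (-1.61 ± 0.07, adjusted p = 1.64e-06) and fell by 79.9% (-1.96 ± 0.04, adjusted p = 1.64e-09), and both calls were made under all 15 alternative settings.

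**Figure D3:**
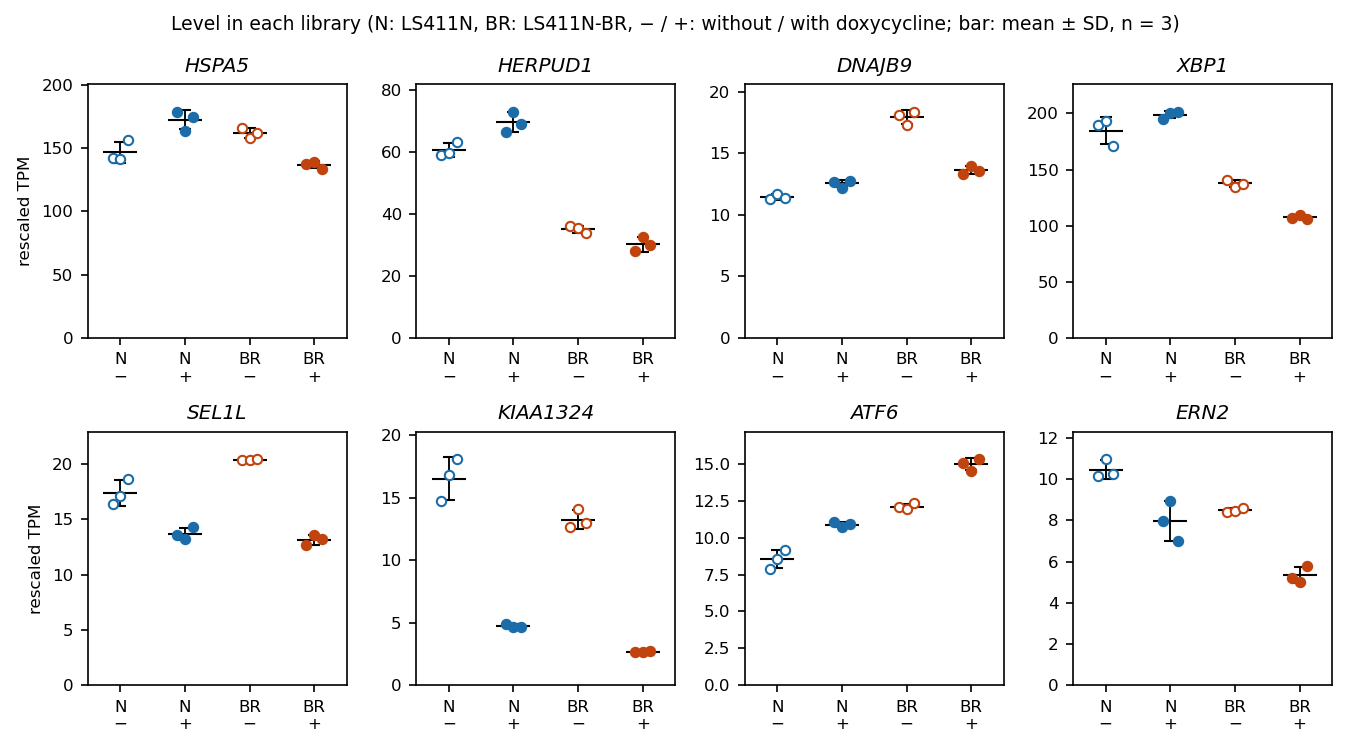
Level in rescaled TPM (y axes, from 0) of 8 ER genes in each library of LS411N (N, blue) and LS411N-BR (BR, orange) without (open) and with (filled) doxycycline; bars are mean ± SD of 3 libraries. HSPA5 and HERPUD1 are higher with doxycycline in LS411N and lower in LS411N-BR, XBP1 and DNAJB9 fell in LS411N-BR alone among the calls, and KIAA1324 fell in both.

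Whether a gene responded differently in the lines was tested by the interaction of line and doxycycline over all 12 libraries. Of the 31 genes, 8 had a lower response in LS411N-BR than in LS411N and 0 had a higher one (limma, with 13 lower and 0 higher at an unadjusted p under 0.05), where 5.80% of all genes were lower and 4.37% higher. The difference was negative for 28 of the 31, with a median of -0.115 against -0.009 for all genes, and on deposited TPM for 14 of the 31, with a median of 0.012 against 0.106. It was -0.50 ± 0.05 for DNAJB9 (adjusted p = 0.00011), -0.48 ± 0.07 for HSPA5 (adjusted p = 0.000587), -0.47 ± 0.06 for XBP1 (adjusted p = 0.000479) and -0.41 ± 0.08 for HERPUD1 (adjusted p = 0.00487). In these 4 genes, and in SPCS2 (-0.20 ± 0.06, adjusted p = 0.0405), the LS411N change was above 0 and the LS411N-BR change below it. PDIA4 (-0.22), SEL1L (-0.28) and KIAA1324 (-0.35) fell in both lines and further in LS411N-BR. For ATF6 the difference was -0.03 ± 0.07 (adjusted p = 0.796) and for ERN2 -0.23 ± 0.10 (adjusted p = 0.169), neither of which was called.

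DNAJB9, HSPA5, XBP1 and HERPUD1 were called different without any 1 of the 12 libraries, with adjusted p between 5.68e-05 and 0.018. On deposited TPM the differences were -0.37, -0.35, -0.34 and -0.29, with adjusted p between 0.206 and 0.456, and none of the 31 was called. Over the 12 refits that each left out 1 library, the call was lost in 8 for PDIA4, 4 for SEL1L, 6 for KIAA1324 and 10 for SPCS2. The count of 8 genes called was 13 without untreated LS411N replicate 3. It was 5 without treated LS411N replicate 1 or any 1 untreated LS411N-BR library, and 4 without treated LS411N-BR replicate 1. Of the tested markers of goblet and other secretory cells, 2 of 5 (AGR2 and SPDEF) rose and 0 fell in LS411N (limma, 2 and 0 at an unadjusted p under 0.05, the SPDEF call being lost without any 1 treated library). In LS411N-BR 1 of 6 rose, again AGR2, and 4 fell. Among all genes, 19.2% rose and 15.7% fell in LS411N, and 33.4% rose and 31.3% fell in LS411N-BR. The summed level of the markers rose in both lines. It went from between 583 and 677 to between 885 and 962 TPM in LS411N, mostly AGR2, and from between 328 and 337 to between 350.4 and 406 TPM in LS411N-BR, while MUC2 and CLCA1 stayed under 1 TPM throughout. The part of such cells in the result was not tested.

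Levels of the lines without doxycycline are set side by side with no test, because their tables were normalized separately. Of the 31 genes, 4 were at least 1.5-fold higher in LS411N-BR and 4 at least 1.5-fold lower with no overlap of libraries, that is 12.9% each, near the 15.1% and 14.3% of all genes. KDELR3 was at 14.7, 13.4 and 12.02 TPM in LS411N and 28.8, 28.1 and 29.1 TPM in LS411N-BR, 2.15-fold higher. KDELR2 was 1.86-fold higher, at 87.0, 84.6 and 77.6 TPM against 157, 149 and 157 TPM, and DNAJB9 and EDEM1 were 1.57- and 1.56-fold higher. HERPUD1 was 1.73-fold, ERN1 1.66-fold, CRELD2 1.57-fold and DNAJB11 1.505-fold lower in LS411N-BR. The chaperones HSPA5, HSP90B1 and CANX were within 1.11-fold of each other in the lines, with the SDs of HSP90B1 overlapping. The other folding chaperones, HYOU1 and CALR, were 1.44-fold and 1.21-fold lower in LS411N-BR, with no overlap of libraries.

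**Figure D4:**
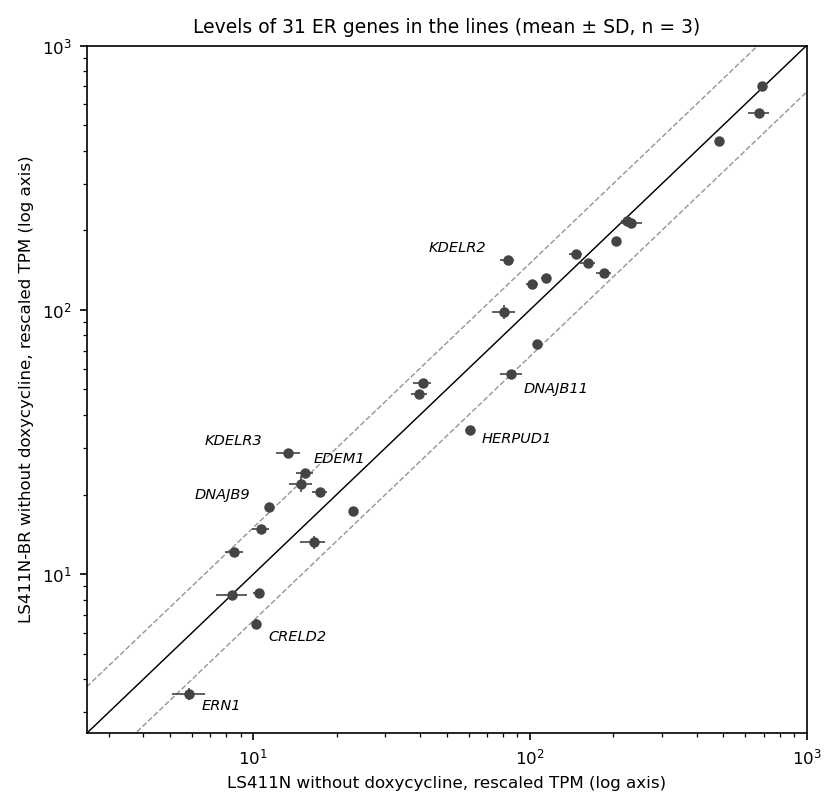
Level of the 31 tested ER genes without doxycycline in LS411N (x axis) and LS411N-BR (y axis), in rescaled TPM on log axes, as mean ± SD of 3 libraries; the solid line marks equal levels and the dashed lines 1.5-fold. The 8 named genes lie at or past 1.5-fold, KDELR3 farthest above at 2.15-fold and HERPUD1 farthest below at 1.73-fold.

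Members with and without a promoter word were compared by their counts, which does not divide targets of XBP1 or ATF6 from other genes. Of the 11 tested genes with a word, 9 fell and 2 rose in LS411N-BR (SDF2L1 and KDELR3), and of the 17 with a promoter but no word, 10 fell, 1 rose and 6 were not called. Of all genes, 31.3% fell and 33.4% rose there. The medians were -0.243 and -0.143. In LS411N 3 of the 11 fell and 2 rose, against 4 and 1 of the 17 and 15.7% and 19.2% of all genes. The response was lower in LS411N-BR than in LS411N for 3 of 11 and 5 of 17, and for 5.80% of all genes. Outside the 32 genes, ERSE or ERSE-II was found in promoters of 26 listed genes, of which 20 were tested in LS411N-BR, where 8 fell (40%) and 4 rose (20%), against 31.3% and 33.4% of all genes. The largest rises of this set were those of GLRA2 (1.18 ± 0.07), SYNPO (0.79 ± 0.05) and SHCBP1 (0.64 ± 0.03). In LS411N-BR, GLRA2 went from a mean of 0.751 to 2.96 TPM and SYNPO from 0.584 to 1.75 TPM. Both reached the filter of 1 TPM there through their treated libraries alone, so their rises are no independent result. The largest falls there were those of TRIM5 (-0.68 ± 0.04, adjusted p = 1.12e-06) and NAV2 (-0.46 ± 0.05, adjusted p = 2.8e-05). Smaller falls in LS411N-BR were those of SERP1, a stabiliser of translocating membrane proteins, from 107.8 to 79.7 TPM (-0.43 ± 0.03, adjusted p = 2.57e-06) and FICD, which modifies HSPA5, from 3.44 to 2.58 TPM (-0.31 ± 0.05, adjusted p = 0.000322). All of these genes were named after their values were seen, SERP1 and FICD for their part in the ER.

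Other genes of the pathway, taken from lists of 10 to 23 symbols, did not share one direction, and their counts are to be read against all genes, of which 19.2% rose and 15.7% fell in LS411N and 33.4% rose and 31.3% fell in LS411N-BR. Of 18 tested ER folding and disulphide enzymes outside the 32, 3 rose and 5 fell in LS411N and 4 rose and 7 fell in LS411N-BR. DNAJC10, a reductase that opens disulphides of degradation substrates, fell in both (-0.40 ± 0.07 and -0.66 ± 0.03), as did the prolyl isomerase PPIB (-0.33 ± 0.06 and -0.41 ± 0.04). ERP29 was at 221.2 and 220.8 TPM in LS411N and fell from 56.6 to 45.2 TPM in LS411N-BR, the only gene of this list called different between lines (-0.32 ± 0.07, adjusted p = 0.0118). Of 13 degradation genes, 3 rose and 2 fell in LS411N and 5 rose and 3 fell in LS411N-BR. NPLOC4, a cofactor of the p97 ATPase, fell in LS411N from 17.5 to 9.20 TPM and in LS411N-BR from 23.4 to 12.9 TPM. Of 22 translocon, signal peptidase and oligosaccharyl transferase genes, 3 rose and 2 fell in LS411N and 5 rose and 9 fell in LS411N-BR, with SEC63, a partner of the SEC61 channel, falling in both (-0.38 ± 0.05 and -0.51 ± 0.03). No degradation or translocon gene of these lists was called different between the lines by limma, and 4 of 13 and 3 of 22 had an unadjusted p under 0.05.

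Of 11 tested genes of the branch from PERK to ATF4 and CHOP, 3 rose and 0 fell in LS411N (limma, 4 higher and 0 lower at an unadjusted p under 0.05), and of 10 in LS411N-BR 5 rose and 2 fell. ATF3, a stress-induced transcription factor, rose from 10.8 to 13.8 TPM (0.33 ± 0.09, adjusted p = 0.0264) in LS411N and from 5.51 to 8.58 TPM (0.56 ± 0.06, adjusted p = 4.31e-05) in LS411N-BR. The LS411N call of ATF3 was lost without untreated replicate 2 or treated replicate 2 or 3 (adjusted p up to 0.105). PPP1R15A (GADD34), which undoes the PERK brake on translation, rose by 0.32 ± 0.09 and 0.32 ± 0.03, the LS411N call being lost without treated replicate 1. CEBPB fell in LS411N-BR alone among the calls and its response differed between lines (-0.41 ± 0.08, adjusted p = 0.00545). ATF4 was called slightly lower in LS411N-BR (-0.09 ± 0.03, adjusted p = 0.0269), a call that was lost without untreated replicate 1 or 3 or treated replicate 1 or 3, and its sign turned on deposited TPM.

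Other ER stress factors included genes moving both ways, 2 higher and 5 lower of 9 tested in LS411N and 2 higher and 6 lower of 10 in LS411N-BR. TXNIP, a thioredoxin inhibitor, rose in both lines and more in LS411N (0.72 ± 0.05 and 0.26 ± 0.04, difference adjusted p = 0.00145), and CREB3, a membrane-bound transcription factor, rose in both (0.28 ± 0.07 and 0.41 ± 0.04), the LS411N call being lost without treated replicate 1 or 2. On deposited TPM the LS411N calls of CREB3, CREB3L1, WFS1, PPP1R15A, DNAJC10 and SEC63 were lost. MBTPS1, the site-1 protease that cleaves ATF6, fell in LS411N-BR (-0.43 ± 0.03), and the ATF6 paralog ATF6B fell there too (-0.38 ± 0.05). WFS1 and CREB3L1 fell in LS411N (-0.40 ± 0.05 and -0.43 ± 0.06) and responded differently in LS411N-BR, by 0.45 ± 0.06 (adjusted p = 0.000587) and 0.35 ± 0.07 (adjusted p = 0.00558). Cytosolic heat shock genes, a list for comparison outside the ER, had 6 of 9 lower and 0 higher in LS411N (limma, 6 and 0 at an unadjusted p under 0.05) and 1 lower and 1 higher in LS411N-BR.

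**Figure D5:**
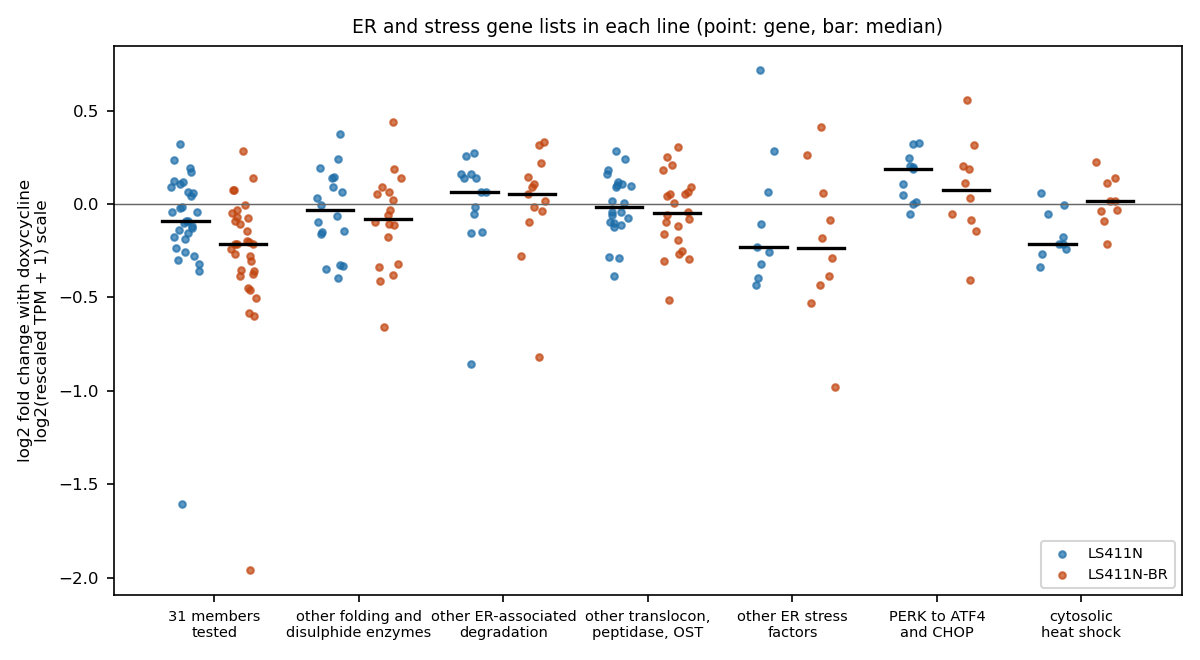
Log2 fold change with doxycycline (y axis, log2(rescaled TPM + 1) scale) of each tested gene of the 31 ER genes and 6 other lists in LS411N (blue) and LS411N-BR (orange); a point is a gene and a bar the list's median. The bar of the 31 ER genes lies at -0.09 and -0.215, and that of the PERK to ATF4 and CHOP branch at 0.186 and 0.073.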

How the data were processed

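The deposited values are TPM per gene from the authors, in 1 table per line with 3 libraries per group and 25673 and 25540 genes. Per the submitters' processing notes, the tools and builds include STAR and GRCh38, in roles that are not stated. Neither the TPM program nor the read depth is stated, so no counting interval is given. Libraries were made with a stranded mRNA kit, per the labels' protocols. TPM were rescaled here by median-of-ratios factors over the 14233 genes above 0 in all 12 libraries. Linear models with an intensity trend (limma 3.58.1, R 4.3.3) were fitted to log2(rescaled TPM + 1), which understates changes of low genes, per line for doxycycline and over all 12 libraries for the interaction. Tests were two-sided, on genes reaching 1 TPM in at least 3 libraries of the comparison, with p-values adjusted over all of them by Benjamini-Hochberg and a threshold of 0.05. The fits were tested on simulated data.

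The 32 genes, the other lists and the rules were chosen with earlier results of these data known. All 32 genes are named. Of each other list, at most the 2 largest called rises and falls per comparison, without overlap and with a mean of at least 5 TPM, were eligible, with exceptions said. Alternatives were TPM as deposited, factors from genes of at least 5 TPM, a pseudocount of 0.1, no filter or a filter of 5 TPM, no trend, robust moderation, a shared 12-library spread, a replicate block and leaving out each library. Promoters and gene positions are RefSeq's on GRCh38.p14, and short RNA types and overlapping genes come from GENCODE 29.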

Additional observations from a re-analysis of the deposited data

Results flagged for a closer look

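The response to doxycycline differed between LS411N and LS411N-BR, by the interaction of line and doxycycline (limma, adjusted over all genes), for 8 of the 31 ER genes tested. All 8 were lower in LS411N-BR, where 5.80% of all genes were lower and 4.37% higher. On TPM as deposited none of the 31 was called. The difference, LS411N-BR minus LS411N in log2, was -0.50 for DNAJB9, -0.48 for HSPA5, -0.47 for XBP1, -0.41 for HERPUD1, -0.35 for KIAA1324, -0.28 for SEL1L, -0.22 for PDIA4 and -0.20 for SPCS2.

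Among genes of the other lists it was -0.32 for ERP29, 0.45 for WFS1, 0.35 for CREB3L1, -0.45 for TXNIP, -0.25 for CREB3L2, -0.41 for CEBPB and 0.23 for HSPH1. Among cell type markers it was -2.53 for SPINK4, -1.01 for SPDEF, -0.85 for LYZ, -0.42 for CDH17 and -0.33 for CD68. Leaving out 1 library at a time, the call of HSPH1 was lost in 10 of 12 refits, all but those without untreated LS411N replicate 2 or 3, and that of CREB3L2 in 7 of 12 (untreated LS411N replicate 2, treated LS411N replicates 1 and 3, untreated LS411N-BR replicates 1 and 2, and treated LS411N-BR replicates 1 and 3). On TPM as deposited, WFS1, SPINK4, SPDEF and LYZ were called different and the others named here were not.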

How the results depend on the processing

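On TPM as deposited, members called higher and lower were 0 and 1 in LS411N, 6 and 10 in LS411N-BR, and 0 and 0 for the difference. All genes called higher and lower were then 1121 and 404, 6351 and 1252, and 162 and 85. On this scale changes in LS411N-BR turned positive for genes called on either scale (CANX 0.005, EDEM1 0.085, SEC61A1 0.167, SEC61B 0.195, SPCS2 0.048, KDELR2 0.111 and ATF4 0.113), and for DNAJB11 (0.126), SYVN1 (0.139) and EIF2AK3 (0.111), called on neither. The median of all genes in LS411N-BR lay at 0.183 on this scale and at 0.005 after rescaling. Relative to that median, CANX was at -0.178 on deposited and -0.201 on rescaled TPM, EDEM1 at -0.098 and -0.114, and SPCS2 at -0.136 and -0.148. KDELR2 was at -0.072 and -0.094, SEC61A1 at -0.016 and -0.038, and SEC61B at 0.012 and -0.011. The cause of the shift in the median was not tested. With the spread shared over 12 libraries, members called higher and lower were 5 and 13 in LS411N and 1 and 20 in LS411N-BR. Of all 11330 genes tested in LS411N, 2849 were then called higher and 2392 lower.

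Leaving out 1 library at a time gave in LS411N 1 to 4 members higher (1 without untreated replicate 2 or treated replicate 3) and 7 to 11 lower, and 1368 to 2959 genes higher and 1142 to 2369 lower, the lowest without treated replicate 2 and the highest without untreated replicate 3. In LS411N-BR it gave 1 to 3 members higher (1 without untreated replicate 2, or treated replicate 1 or 2) and 21 to 22 lower, and 3366 to 3586 genes higher and 3118 to 3353 lower. For the difference it gave 0 members higher, 4 to 13 lower, and 265 to 1008 genes higher and 396 to 1333 lower, the lowest without treated LS411N-BR replicate 1 and the highest without untreated LS411N replicate 3.

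Replicate numbers did not pair the samples: same-numbered libraries correlated between -0.009 and 0.201 in LS411N and between -0.003 and 0.031 in LS411N-BR. With a replicate block the members called higher and lower were 3 and 9, 2 and 22, and 0 and 8. Over single genes and all alternatives, 780 of 868 values stayed on their side of the threshold, without a change of sign where called, in LS411N, 846 of 895 in LS411N-BR and 806 of 878 for the difference. With 3 libraries per group and unknown depth, small changes of low genes are the least certain.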

Other observations

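Among the markers of goblet and other secretory cells, AGR2, itself an ER disulphide isomerase relative that folds mucins, was the most abundant. It rose from 589.9 to 874.9 TPM in LS411N (log2 fold change 0.57 ± 0.07, adjusted p = 0.00041) and from 297.3 to 362.3 TPM in LS411N-BR (0.28 ± 0.05, adjusted p = 0.00119). SPINK4, a goblet cell peptide, was at 24.3 and 26.8 TPM in LS411N and fell from 23.7 to 3.72 TPM in LS411N-BR (-2.40 ± 0.14, adjusted p = 4.75e-07). SPDEF, a transcription factor of goblet cells, rose from 3.99 to 5.07 TPM in LS411N (0.29 ± 0.10, adjusted p = 0.049), a call lost without any 1 of the 3 treated libraries (adjusted p up to 0.143), and was at 0.987 and 0.208 TPM in LS411N-BR, under the filter. LYZ, listed as an immune marker and also made by secretory gut epithelium, fell from 2759 to 1423 TPM in LS411N and from 154.5 to 43.6 TPM in LS411N-BR.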
